A study of Homo sapiens with 6 samples.

Results

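Chromosome 19 carries the densest collection of zinc finger genes in the human genome. The genes described here are the protein-coding genes of chromosome 19 whose symbol is ZNF followed by digits, chosen by symbol and position alone, with no measured value used. They number 249 of the 60612 gene IDs in each count table, and 235 of them had enough reads to be tested. Gene expression was measured by sequencing of ribosomal RNA-depleted total RNA in 6 libraries of KO52, a human cell line of acute myeloid leukemia with mutations on both alleles of CEBPA. All 3 groups were KO52 cells transduced with a doxycycline-inducible lentiviral vector, with 2 libraries in each group. The vector was empty but for GFP (EV) or carried the coding sequence of a dominant negative peptide, directed at C/EBP (dnCEBP) or at FOS (dnFOS). The paper states that transduced cells were given doxycycline and sorted for GFP before RNA was sequenced. Both peptides pair with members of their transcription factor family, and a pair that holds the peptide cannot bind DNA. KO52 is 1 cell line, and nothing in the labels says that the 2 libraries of a group came from separate cultures, so the p-values may measure technical spread only.

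Most genes of this family encode KRAB zinc finger proteins. Their C2H2 fingers, short zinc-holding loops, read DNA, and the KRAB domain at the other end recruits the co-repressor TRIM28, which brings the methyltransferase SETDB1 to deposit repressive methylation on histone H3. Many of them silence transposable elements. The genes arose by repeated tandem duplication, so neighbours are often close copies of each other. Here the family was low in guanine and cytosine (GC) beside the other tested protein-coding genes of chromosome 19, with a median GC content of 42.3% against 59.9%, and its transcripts were longer, with a median exon length of 5017 bases against 3843, though not longer than those of all tested protein-coding genes (5125).

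The 3 groups were deep enough to compare but not equally deep, with 9862994 to 27663179 counts a library and both dnFOS libraries the shallowest. Of the 9 markers of myeloid blasts examined, all 9 were tested, and their levels summed to between 1269.1 and 1443.3 CPM, the count scaled to library size, in the 6 libraries. Single markers differed between groups in both directions. MPO averaged 217 CPM in EV, 58.2 CPM in dnCEBP and 146 CPM in dnFOS, and CEBPA 387, 367 and 478 CPM. Markers of T and NK cells summed to 113 to 175 CPM, of which CD3D held the most, while CD3E had 0 to 4 counts. Levels summed to 11.3 to 19.5 CPM for B cells, 0.677 to 3 CPM for erythroid cells and 67.5 to 87.6 CPM for fibroblast and epithelial markers. Nearly all of the last sum came from EPCAM, KRT8 and KRT18. COL1A1, COL1A2, COL3A1, CDH1 and CDH2 had too few reads to be tested. MS4A1, PAX5, HBA2 and CDH1 had 0 counts in every library. CPM are relative levels, so fewer cells and less RNA per cell cannot be told apart.

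The 249 genes fell into 10 clusters of at least 5 genes, a new cluster being started wherever more than 500 kb separated neighbours. On GRCh38 the clusters lay at 2.82-2.94 Mb (cluster 1, 5 genes), 8.51-9.79 Mb (cluster 2, 14 genes), 11.5-12.6 Mb (cluster 3, 26 genes) and 19.7-24.1 Mb (cluster 4, 37 genes). Further along the chromosome they lay at 34.7-35.0 Mb (cluster 5, 5 genes), 36.2-37.8 Mb (cluster 6, 26 genes), 43.5-44.5 Mb (cluster 7, 23 genes) and 51.6-53.6 Mb (cluster 8, 40 genes). The last clusters held 16 genes at 55.5-56.7 Mb (cluster 9) and 43 genes at 57.2-58.5 Mb (cluster 10). The other 14 genes lay outside the clusters. A KRAB-like pattern was found in the longest coding sequence of 209 genes, and the median number of C2H2 fingers was 12, with at most 36. Cluster 9 stood apart in sequence, with the pattern in 5 of 16 genes and a median GC content of 58.7%, against 37.4% in cluster 4 and 42.3% over all 249 genes.

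Close copies limit what short reads can tell. In 29 genes at least 20% of the 75-base stretches of the transcripts also occurred in transcripts of other genes, and in 86 genes none did. ZNF320 and ZNF468 in cluster 8 shared 99.5% and 99.2% of theirs, and ZNF564 in cluster 3 shared 83.7%. How the authors' counting treated reads that match several genes is not given in the sources used here, so the levels of such genes are uncertain. Of the 26 genes called in dnFOS against EV, 3 shared at least 20%, namely ZNF320, ZNF417 (31.5%) and ZNF587 (35.2%). The 3 symbols that join 2 genes, ZNF559-ZNF177, ZNF625-ZNF20 and ZNF816-ZNF321P, are readthrough genes that overlap their parts.

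The family was broadly but weakly expressed. The median level of the 235 tested genes was 13.9 CPM, against 19.4 CPM over all tested protein-coding genes, and together the family took 0.474% and 0.487% of the counts in dnFOS, 0.412% and 0.436% in dnCEBP, and 0.403% and 0.412% in EV. Both dnFOS shares lay above the other 4, but these are shares of raw library totals. With the TMM scaling used for the levels elsewhere, the family summed to 4502.6 and 4641.3 CPM in dnFOS. The sums were 4219.3 and 4560.5 CPM in dnCEBP and 4142.0 and 4156.1 CPM in EV, so dnFOS and dnCEBP overlapped. Of the 14 genes not tested, 5 had 0 counts in all libraries and the other 9 had at most 7 counts in any library. These 5, ZNF208, ZNF729, ZNF723, ZNF728 and ZNF536, were singled out after their values were seen. A count of 0 allows a level of up to 0.111 CPM where depth was greatest and 0.29 CPM where it was least, taking 3 counts as the floor and counting error only. Of the 14 untested genes 7 were in cluster 4, which holds 37.

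Per kilobase of exon the levels spanned a wide range within each cluster. The highest member of each cluster was ZNF146 in cluster 6, with a mean of 45.5 CPM per kb, ZNF121 in cluster 2 (24.3), ZNF460 in cluster 10 (13.6), ZNF737 in cluster 4 (12.3), ZNF792 in cluster 5 (11.5), ZNF160 in cluster 8 (9.81), ZNF581 in cluster 9 (8.66), ZNF700 in cluster 3 (8.13), ZNF227 in cluster 7 (7.26) and ZNF77 in cluster 1 (2.44). ZNF146 is unusual in the family, being made of fingers with no KRAB domain. The median gene of cluster 2 had 4.25 CPM per kb and that of cluster 4 had 4.14, against 1.51 in cluster 1 and 1.22 in cluster 9.

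The comparison of dnFOS with EV asks which genes change when DNA binding by the AP-1 family is blocked. Of the 235 genes, 21 were upregulated and 5 downregulated at an adjusted p under 0.05, which is 11.1% of them. Over all 15395 genes tested, 15.0% were called, with 7.24% higher and 7.76% lower, so the family was called no more often than genes in general, and mostly in 1 direction. The median log2 fold change of the family was 0.15, with quartiles of -0.03 and 0.29. The median was 0.00404 over all genes tested and -0.218 over the 702 other tested protein-coding genes of chromosome 19, of which 7 were higher and 118 lower. No called rise reached 2-fold. ZNF112, ZNF578 and ZNF878, named after their values were seen, had fitted log2 fold changes of 2.15, 1.39 and 1.02 but did not pass the test (adjusted p = 0.229, 0.0857 and 0.103). In both dnFOS libraries 108 genes lay above both EV libraries and 31 below both, where all genes gave 28.3% above and 28.4% below. With library totals alone in place of TMM scaling, 39 genes were called higher and 3 lower, while the median of all genes moved by 0.102. That setting shifts every gene, so these counts do not describe the family alone.

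The fold changes of the family varied with its sequence composition. Across the 235 genes, Spearman's rho between the log2 fold change in dnFOS and GC content was -0.375, and between the fold change and exon length 0.209. These are descriptions across genes that share the same 4 libraries. All 15222 tested genes with a known GC content gave a rho of -0.393 with GC content. In the first of 4 equal bins of GC content, up to 41.7%, the 104 ZNF genes had a median of 0.20 and all 3806 genes of that bin 0.196. In the next bin, up to 47.7%, the medians were 0.132 for 91 ZNF genes and 0.0625 for all 3805 genes. In the bin after that, up to 55.5%, they were on opposite sides of 0, at 0.125 for 17 ZNF genes and -0.0571 for all 3805 genes. In the last bin, above 55.5%, they were -0.226 for 23 ZNF genes and -0.205 for all 3806 genes. All 21 upregulated genes lay between 33.9% and 45.6% GC. ZNF genes on other chromosomes, with a median GC content of 44.8%, gave 26 higher and 8 lower of 230 and a median of 0.118.

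**Figure D1:**
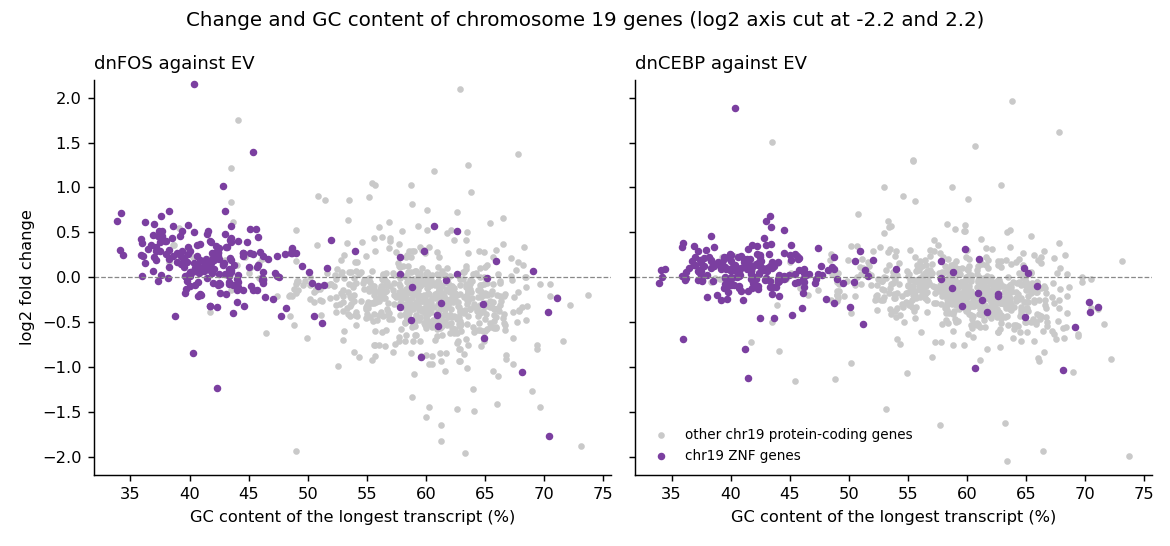
Log2 fold change (vertical axis) against GC content of the longest transcript in percent (horizontal axis) for tested chromosome 19 ZNF genes (purple) and other tested chromosome 19 protein-coding genes (grey), in dnFOS against EV (left) and dnCEBP against EV (right). Both sets fall from left to right in both panels. Spearman's rho is -0.375 for ZNF genes and -0.23 for other genes on the left. On the right it is -0.221 and -0.261. The axis is cut at -2.2 and 2.2, which leaves out 7 other genes on the left and 1 on the right and no ZNF gene.

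The same quantities were computed for single libraries. The median of the family, as log2 CPM less the mean of the EV libraries, was 0.0122 and 0.122 in dnCEBP replicates 1 and 2 and 0.145 and 0.159 in dnFOS replicates 1 and 2. The rho with GC content across the family was -0.119, -0.218, -0.25 and -0.418 in the same order. Between replicates of 1 group the family differed by a median of 0.0114 in EV, 0.0535 in dnFOS and 0.0901 in dnCEBP (replicate 2 less replicate 1), with a rho of -0.0314, -0.284 and -0.13. Over all 15222 genes the rho between replicates was -0.125 in EV, -0.264 in dnFOS and -0.379 in dnCEBP.

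When each library was corrected for a fitted dependence of log2 CPM on GC content and exon length (called the trend from here on), the median of the family fell to 0.0306 in dnFOS, and 5 genes were called higher and 8 lower. Over all genes 4.75% were then higher and 8.59% lower. Calls of 9 genes stood in both fits, namely the rises of ZNF121, ZNF347, ZNF382, ZNF417 and ZNF626 and the falls of ZNF93, ZNF160, ZNF581 and ZNF792. The other 17 calls were lost, and 4 falls were gained, in ZNF211 (log2 fold change -0.45), ZNF230 (-0.631), ZNF266 (-0.387) and ZNF564 (-1.33), which are named after their values were seen. Without the trend correction these 4 had adjusted p of 0.0583, 0.118, 0.0655 and 0.068. The cause of the gradient was not tested.

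**Figure D2:**
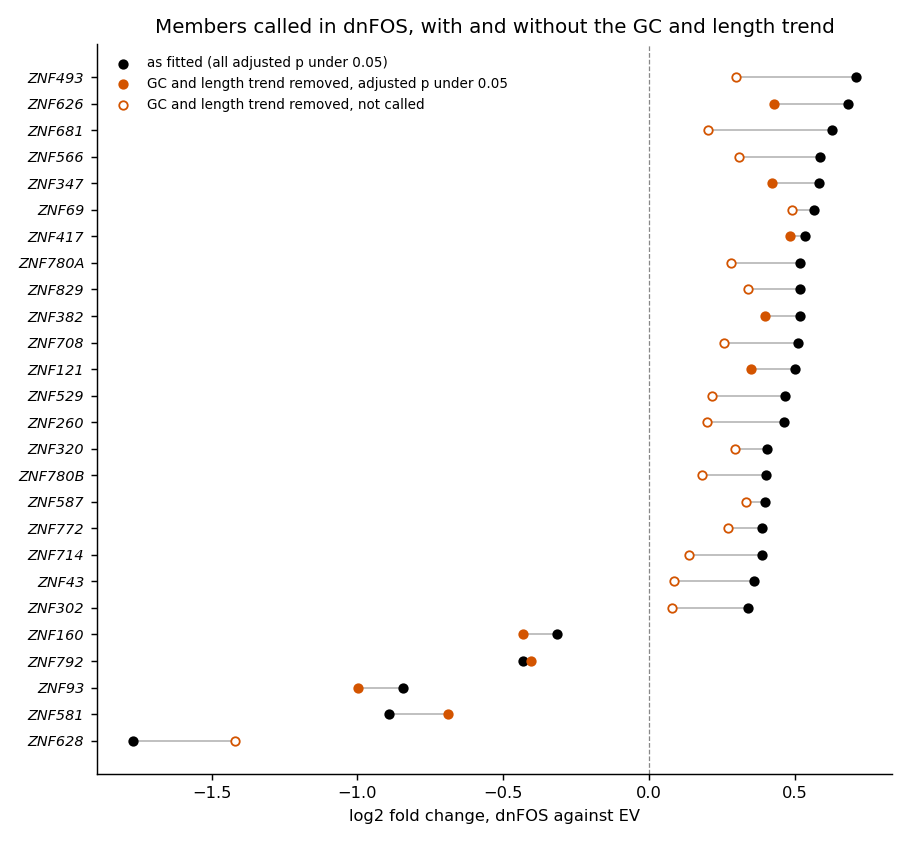
Log2 fold change in dnFOS against EV (horizontal axis) of the 26 chromosome 19 ZNF genes called, 1 gene a row, as fitted (black) and after removal of the trend (orange, filled where still called). The 21 rises all move toward 0, and 5 of them stay called, while 4 of the 5 falls stay called.

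The smallest adjusted p of the family was that of ZNF93, which fell. ZNF93 (ENSG00000184635, chromosome 19, 19900913 to 19963464, plus strand, cluster 4) encodes a KRAB protein known to silence LINE elements. EV libraries held 1535 and 1333 counts for it, dnCEBP libraries 1434 and 1353, and dnFOS libraries 564 and 340. These were 64.4 and 61.0 CPM in EV, 53.1 and 65.3 CPM in dnCEBP and 36.7 and 32.9 CPM in dnFOS. Both dnFOS libraries lay well below all of the others, while dnCEBP and EV overlapped. The log2 fold change in dnFOS against EV was -0.845 ± 0.11 (SE, adjusted p = 4.25e-06), and it stayed between -0.932 and -0.772 when any 1 library was left out. With the trend removed it was -0.997 (adjusted p = 2.1e-08). In dnCEBP against EV it was -0.086 ± 0.10 (adjusted p = 0.817).

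The genes whose promoters are most like that of ZNF93 did not fall with it. The 250 bases before its start were compared with those of 216 other members in the RefSeq promoter table (GRCh38.p14), whose gene starts can differ from the GENCODE starts given for genes here, as they do for ZNF93 and ZNF175, and 22 of them, all in cluster 4, were at least 70% identical in a global alignment, with 74.4% to 87.0%. ZNF626 was 85.0% identical, ZNF91 83.1% and ZNF493 75.9%. Of these 22, 20 were tested in dnFOS against EV, and 19 of the 20 had a log2 fold change above 0. Their range was -0.00104 to 0.712 with a median of 0.272, and 5 were called higher and none lower (7.24% and 7.76% of all genes). Once the trend was removed 12 of the 20 were above 0 and 1 was called higher, and the range was -0.225 to 0.43 with a median of 0.0334, against -0.997 for ZNF93. Members of the other clusters had a median identity to ZNF93 of 48.8% to 54.4%. The promoters of ZNF93 and of 3 relatives, ZNF626 and ZNF493, the largest called rises, and ZNF91, fixed as a gene to describe, are shown so that the likeness can be seen, with capitals marking CCAAT or its reverse complement ATTGG:
ZNF93, chr19:19900696-19900945, plus strand: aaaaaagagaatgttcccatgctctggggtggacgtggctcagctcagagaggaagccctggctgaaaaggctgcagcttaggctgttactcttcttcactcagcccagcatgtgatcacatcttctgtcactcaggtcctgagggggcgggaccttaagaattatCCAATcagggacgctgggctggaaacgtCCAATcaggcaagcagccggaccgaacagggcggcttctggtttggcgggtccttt
ZNF626, chr19:20661572-20661821, minus strand: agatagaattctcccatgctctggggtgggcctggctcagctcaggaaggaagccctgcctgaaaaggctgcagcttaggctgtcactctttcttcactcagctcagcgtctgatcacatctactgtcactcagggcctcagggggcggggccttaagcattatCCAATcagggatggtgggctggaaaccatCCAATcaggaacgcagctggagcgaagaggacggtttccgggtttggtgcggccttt
ZNF493, chr19:21396883-21397132, plus strand: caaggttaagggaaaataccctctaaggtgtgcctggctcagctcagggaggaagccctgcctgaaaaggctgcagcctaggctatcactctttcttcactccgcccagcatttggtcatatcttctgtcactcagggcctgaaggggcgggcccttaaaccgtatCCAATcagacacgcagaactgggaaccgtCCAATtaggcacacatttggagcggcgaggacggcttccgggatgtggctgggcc
ZNF91, chr19:23395472-23395721, minus strand: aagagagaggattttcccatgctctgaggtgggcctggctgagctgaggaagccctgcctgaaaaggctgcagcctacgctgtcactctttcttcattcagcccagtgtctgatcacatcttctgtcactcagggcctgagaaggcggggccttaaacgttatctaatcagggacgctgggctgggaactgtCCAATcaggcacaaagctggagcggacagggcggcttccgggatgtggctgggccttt

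In these 4 sequences the CCAAT letters, the core of the box bound by NF-Y, stood at nearly fixed distances from the start. ZNF93 carried them 84 and 56 bases before its start, ZNF626 at 86 and 57, ZNF493 at 84 and 55, and ZNF91 only at 58. All 29 cluster 4 promoters in the table held at least 1 match on either strand and 20 of them (69.0%) at least 2, against 33.0% and 10.0% of all 27305 promoters. The family as a whole held at least 1 match in 51.6%. High shares were not particular to cluster 4, since all 5 promoters of cluster 1 held at least 2 matches and 92.0% of cluster 3 and 62.5% of cluster 10 at least 1, against 16.7%, 21.1% and 27.3% in clusters 6, 7 and 8. Among the 29 no promoter held an AP-1 pattern (TGANTCA) or a C/EBP pattern (TTGCNNAA), where 6.6% and 9.13% of all promoters did. Since 22 of them are at least 70% identical to that of ZNF93, the 29 are not separate observations. Clusters 1, 5 and 9 held no AP-1 pattern either, and clusters 1, 2, 3 and 5 no C/EBP pattern. A match or its absence describes these letters in this window only.

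**Figure D3:**
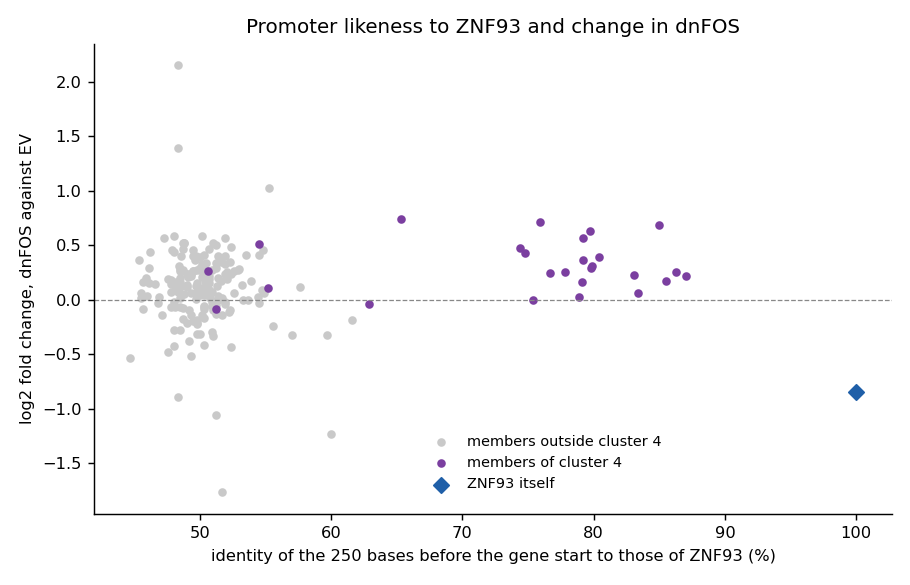
Log2 fold change in dnFOS against EV (vertical axis) against percent identity of the 250 bases before the gene start to those of ZNF93 (horizontal axis), for members in the promoter table that were tested. The cluster 4 genes at 74.4% to 87.0% sit between -0.00104 and 0.712, and ZNF93 itself, drawn at 100% as a diamond, sits at -0.845.

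The other 4 falls lay in clusters 5, 8 and 9. ZNF581 (cluster 9), a short protein of 4 fingers with no KRAB-like pattern, had 19.3 and 19.4 CPM in EV, 15.7 and 15.3 CPM in dnCEBP and 12.2 and 8.31 CPM in dnFOS. The groups did not overlap, with EV highest and dnFOS lowest. Its log2 fold change in dnFOS was -0.893 ± 0.17 (adjusted p = 0.000423), and it was called in all 6 fits that left out 1 library. ZNF792 (cluster 5), a KRAB protein of 12 fingers, had 52.3 and 49.5 CPM in EV, 56.9 and 58.5 CPM in dnCEBP and 41.2 and 33.9 CPM in dnFOS, a change of -0.431 ± 0.11 (adjusted p = 0.0067). Its call was lost without dnFOS replicate 2 (adjusted p = 0.121) or EV replicate 1 (0.0801). ZNF160 (cluster 8), with 20 fingers, had 83.6 and 89.4 CPM in EV, 87.0 and 102 CPM in dnCEBP and 70.2 and 68.7 CPM in dnFOS, a change of -0.315 ± 0.09 (adjusted p = 0.0199). That call was lost without dnFOS replicate 2 (0.0959), EV replicate 1 (0.0546) or EV replicate 2 (0.129). ZNF628 (cluster 9), named after its values were seen since its mean was under 1 CPM, had 29 and 32 counts in the EV libraries, with 35 and 15 for dnCEBP and 6 and 4 for dnFOS, and its fold change of -1.77 ± 0.61 (adjusted p = 0.0463) kept its call in only 1 of 6 fits without 1 library, the adjusted p in the other 5 running from 0.0555 to 0.177.

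Upregulated genes in dnFOS were most numerous in clusters 4 and 6, with 6 of 30 and 5 of 26 tested genes called higher, where 7.24% of all genes were. Both clusters are low in GC, and in the lowest bin of GC content 725 of all 3806 genes were higher. In each cluster 1 gene was called higher once the trend was removed. The difference from the other clusters was not tested. ZNF626 (cluster 4, 12 fingers) had 27.6 and 24.4 CPM in EV, 23.5 and 27.5 CPM in dnCEBP and 37.1 and 47.0 CPM in dnFOS. Both dnFOS libraries exceeded the other 4, and the log2 fold change of 0.683 ± 0.13 (adjusted p = 0.000542) held in all 6 fits without 1 library. ZNF493 (cluster 4, 18 fingers) had 14.9 and 15.0 CPM in EV, 14.2 and 15.8 CPM in dnCEBP and 19.8 and 29.7 CPM in dnFOS. Its rise of 0.712 ± 0.16 (adjusted p = 0.00277) was the largest called, but dnFOS replicate 2 carried much of it, and without that library the change was 0.406 (adjusted p = 0.182). ZNF681 (cluster 4) had 20.3 and 17.1 CPM in EV and 26.3 and 31.9 CPM in dnFOS (0.63 ± 0.14, adjusted p = 0.00227), and its call was lost without dnFOS replicate 2 (0.0586) or EV replicate 2 (0.0524). ZNF708 (cluster 4) had 25.2 and 27.3 CPM in EV and 35.1 and 40.1 CPM in dnFOS (0.513 ± 0.12, adjusted p = 0.00435), lost without dnFOS replicate 2 (0.065) or EV replicate 1 (0.0665).

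ZNF91, the protein of 31 fingers in cluster 4 known to silence SVA elements, did not pass the test. It had 102 and 101 CPM in EV, 105 and 118 CPM in dnCEBP and 113 and 125 CPM in dnFOS, so both dnFOS libraries lay above both EV libraries, at a log2 fold change of 0.223 ± 0.09 (adjusted p = 0.088). With the trend removed the value was -0.0471 (adjusted p = 0.709). ZNF737, the cluster 4 gene with the highest level per kb, overlapped between dnFOS and EV (0.0591 ± 0.11, adjusted p = 0.771).

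In cluster 6, ZNF566 had 13.6 and 14.7 CPM in EV, 15.5 and 17.5 CPM in dnCEBP and 18.2 and 24.7 CPM in dnFOS, a change of 0.588 ± 0.15 (adjusted p = 0.0097), lost without dnFOS replicate 2 (log2 fold change 0.364, adjusted p = 0.258) or EV replicate 1 (0.0811). ZNF382, a KRAB repressor of 9 fingers, had 13.5 and 12.8 CPM in EV and 18.0 and 19.7 CPM in dnFOS, and ZNF829 had 9.69 and 10.1 CPM in EV and 13.7 and 14.7 CPM in dnFOS. Both rose by 0.518 on the log2 scale, with SE of 0.15 and 0.17 and adjusted p of 0.0196 and 0.0359. Leaving out dnFOS replicate 2, EV replicate 1 or EV replicate 2 lost both calls (adjusted p from 0.0765 to 0.144 for ZNF382 and from 0.11 to 0.188 for ZNF829), and leaving out dnFOS replicate 1 lost that of ZNF829 (0.0662). ZNF146 in the same cluster, the highest of the family, had 186 and 170 CPM in EV, 176 and 204 CPM in dnCEBP and 187 and 208 CPM in dnFOS (0.148 ± 0.09, adjusted p = 0.301).

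Outside these clusters the rises were scattered. ZNF121 (cluster 2), with 9 fingers and no KRAB-like pattern, had 144 and 157 CPM in EV, 163 and 166 CPM in dnCEBP and 205 and 220 CPM in dnFOS. Its groups stood in that order without overlap, and the change in dnFOS of 0.501 ± 0.09 (adjusted p = 0.000159) held in all 6 fits without 1 library and with the trend removed (0.349, adjusted p = 0.000695). ZNF347 (cluster 8, 17 fingers) had 14.4 and 13.4 CPM in EV, 14.6 and 15.1 CPM in dnCEBP and 20.5 and 21.3 CPM in dnFOS (0.585 ± 0.14, adjusted p = 0.00592), lost only without EV replicate 2 (0.0688). ZNF780A, outside the clusters, had 24.0 and 21.5 CPM in EV and 32.9 and 32.2 CPM in dnFOS (0.519 ± 0.12, adjusted p = 0.00438), lost only without EV replicate 2 (0.0794). ZNF69 (cluster 3) had 8.18 and 8.93 CPM in EV and 11 and 14.6 CPM in dnFOS (0.568 ± 0.19, adjusted p = 0.0422), and ZNF417 (cluster 10), a known binder of endogenous retroviruses whose reads may be shared with ZNF587, had 10.6 and 10.9 CPM in EV and 14.6 and 16.8 CPM in dnFOS (0.536 ± 0.16, adjusted p = 0.0219). Both of the last calls were lost without dnFOS replicate 2, EV replicate 1 or EV replicate 2, with adjusted p from 0.0901 to 0.41 for ZNF69 and from 0.0854 to 0.204 for ZNF417. Without dnFOS replicate 2 the change of ZNF69 was 0.364.

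Of the 26 calls, 4 held in every fit that left out 1 library (ZNF93, ZNF121, ZNF581 and ZNF626). A fit without a dnFOS or EV library holds 1 library in that group, so fewer calls there are not read as a property of the family. The fits without a dnCEBP library keep every dnFOS and EV library, so a call kept there says little about how firm it is.

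**Figure D4:**
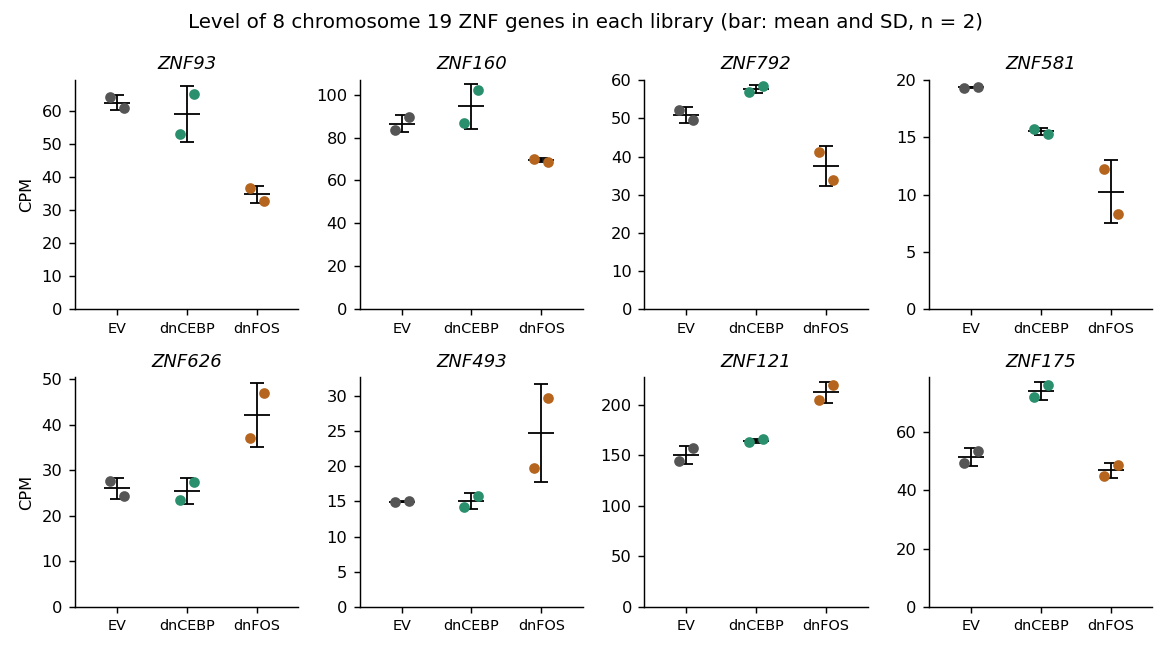
Level in CPM (vertical axis, from 0) of 8 chromosome 19 ZNF genes in each library of EV, dnCEBP and dnFOS (points), with the mean and SD of each group (n = 2). ZNF93, ZNF160, ZNF792 and ZNF581 are lowest in dnFOS, ZNF626, ZNF493 and ZNF121 highest there, and ZNF175 is highest in dnCEBP.

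By cluster, the median log2 fold change in dnFOS ran from -0.108 in cluster 9 to 0.342 in the 5 genes of cluster 5. It was 0.256 in cluster 4, 0.227 in cluster 6, 0.215 in cluster 10, 0.137 in cluster 8 and 0.105 in cluster 7, and between -0.00424 and 0.0592 in clusters 1, 2 and 3. Cluster 9 had the highest median GC content and the lowest median fold change, and cluster 4 the lowest GC content of the 10. In between, the order did not follow GC content. Clusters 5 and 10 (median GC 43.4% and 46.1%) had higher median fold changes than clusters 2 and 3 (43.2% and 42.5%). With the trend removed the cluster medians lay between -0.0565 in cluster 1 and 0.153 in cluster 10, and cluster 4 came to 0.0347. Cluster 7 had no call in dnFOS among 23 genes by edgeR, DESeq2 or limma-voom, where edgeR called 15.0% of all genes. At an unadjusted p under 0.05, 1 gene of the cluster was higher and 1 lower, where 2108 and 2183 of all 15395 genes were. Removing the trend left 1 gene of the cluster lower, ZNF230. ZNF224, a KRAB repressor of this cluster that shares 47.9% of its 75-base stretches with other genes, had 29.6 and 32.9 CPM in EV and 31.0 and 34.4 CPM in dnFOS (0.0635 ± 0.12, adjusted p = 0.781), and ZNF227 overlapped too (-0.0571 ± 0.12, adjusted p = 0.797). The 197 tested genes with a KRAB-like pattern had a median of 0.159, with 18 higher and 3 lower, and the 38 without it 0.089, with 3 higher and 2 lower, where 7.24% of all genes were higher and 7.76% lower. These sets differed in median GC content (42.0% and 57.8%), and with the trend removed their medians stood in the opposite order, at 0.0252 and 0.145.

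**Figure D5:**
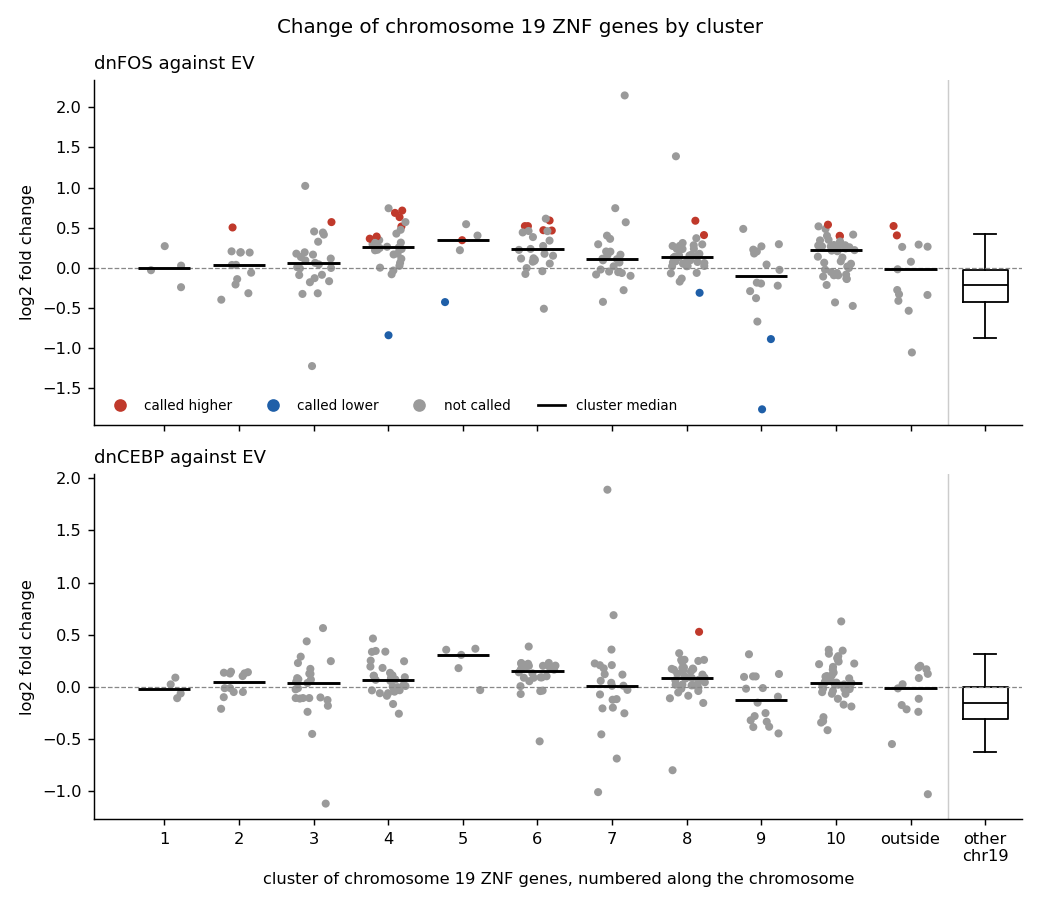
Log2 fold change of each tested chromosome 19 ZNF gene (points) by cluster numbered along the chromosome, with genes outside the clusters and, at the right, other chromosome 19 protein-coding genes as a box (median and quartiles, whiskers at the 5th and 95th percentiles), for dnFOS against EV (top) and dnCEBP against EV (bottom). Red and blue mark genes called higher and lower, and black bars the cluster medians, which are highest in clusters 4, 5, 6 and 10 at the top.

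The comparison of dnCEBP with EV asks the same of the C/EBP family. In dnCEBP 1 gene of 235 (0.426%) was called higher and 0 lower, where 1.07% of all genes tested were called, 0.624% higher and 0.448% lower. In both dnCEBP libraries 72 genes lay above both EV libraries and 25 below both, against 21.9% and 20.9% of all genes. At an unadjusted p under 0.05, 7 genes were higher and 3 lower by edgeR, where 894 and 941 of all 15395 genes were. DESeq2 and limma-voom also called 1 higher and 0 lower. The median log2 fold change was 0.0669, and 0.0115 with the trend removed, when again 1 gene was higher and 0 lower (0.955% and 0.773% of all genes). Without dnCEBP replicate 1 the median was 0.113 and without dnCEBP replicate 2 it was 0.00915. The other chromosome 19 genes had a median of -0.152, with 1 higher and 6 lower.

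The gene called was ZNF175 (ENSG00000105497, chromosome 19, 51571298 to 51592508, plus strand, cluster 8), a KRAB protein of 13 fingers also known as a repressor of HIV transcription in macrophages. Its counts were 1946 and 1581 in dnCEBP, 1176 and 1171 in EV, and 693 and 503 in dnFOS. As levels these were 49.3 and 53.6 CPM in EV, 72.0 and 76.3 CPM in dnCEBP and 45.1 and 48.6 CPM in dnFOS. Both dnCEBP libraries stood above the other 4. The log2 fold change in dnCEBP was 0.527 ± 0.09 (adjusted p = 0.00261), or 0.496 with the trend removed (adjusted p = 0.000512). Without dnCEBP replicate 2 the adjusted p was 0.09 and without EV replicate 1 it was 0.0859, while the fold change stayed between 0.468 and 0.581. In dnFOS it was -0.137 ± 0.10 (adjusted p = 0.394). The 250 bases before its start held neither a C/EBP nor an AP-1 pattern, and 1 CCAAT, in capitals:
ZNF175, chr19:51571033-51571282, plus strand: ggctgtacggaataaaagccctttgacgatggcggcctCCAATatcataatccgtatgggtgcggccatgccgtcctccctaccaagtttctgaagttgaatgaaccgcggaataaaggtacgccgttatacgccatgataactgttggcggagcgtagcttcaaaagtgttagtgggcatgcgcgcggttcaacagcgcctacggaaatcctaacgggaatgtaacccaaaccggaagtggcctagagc

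The direct comparison sets both peptides against each other. It shares its dnFOS libraries with the first comparison and its dnCEBP libraries with the second. In it 12 genes were higher in dnFOS and 8 lower, 8.51% of the family, where 14.7% of all genes were called, 6.83% higher and 7.84% lower. Groups did not overlap for 76 genes higher and 33 lower in dnFOS, against 28.6% and 25.9% of all genes. The median log2 fold change was 0.0806. With the trend removed 8 were higher and 8 lower (7.25% and 10.4% of all genes), 15 of the 20 calls stood, and the median was 0.00922. With library totals alone, a setting that shifts every gene, 27 were higher and 4 lower. A fit without a dnFOS or dnCEBP library holds 1 library in that group, and its count of calls is not read as a property of the family. The fits without an EV library keep every dnFOS and dnCEBP library, so a call kept there says little about how firm it is. ZNF93 (-0.759 ± 0.11, adjusted p = 1.36e-05), ZNF175 (-0.664 ± 0.10, adjusted p = 1.66e-05) and ZNF792 (-0.61 ± 0.11, adjusted p = 0.00019) were the largest falls, and each was called in all 6 fits without 1 library. ZNF581 (-0.572 ± 0.17, adjusted p = 0.0185) lost its call without dnCEBP replicate 1 (0.0848) or dnFOS replicate 2 (0.297), with a change of -0.348 when the latter was left out and of -0.898 when dnFOS replicate 1 was. ZNF526, outside the clusters, had 11.8 and 13.5 CPM in dnCEBP and 8.66 and 8.99 CPM in dnFOS (-0.517 ± 0.18, adjusted p = 0.0447), and kept its call in 2 of the 6 fits, being lost without either library of dnCEBP or dnFOS at adjusted p from 0.0541 to 0.215.

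The largest rises in that comparison were ZNF626 (0.716 ± 0.13, adjusted p = 0.000247), ZNF493 (0.704 ± 0.16, adjusted p = 0.00268), ZNF681 (0.692 ± 0.14, adjusted p = 0.000777), ZNF69 (0.676 ± 0.19, adjusted p = 0.0157) and ZNF8 (0.618 ± 0.16, adjusted p = 0.00647). ZNF626 and ZNF681 were called in all 6 fits without 1 library. ZNF493 was lost without dnFOS replicate 2 (log2 fold change 0.399, adjusted p = 0.178), and ZNF69 and ZNF8 were lost without dnFOS replicate 2 (0.238 and 0.0562) or dnCEBP replicate 1 (0.189 and 0.0919). ZNF8 (cluster 10) had 14.4 and 13.9 CPM in EV, 10.7 and 12.6 CPM in dnCEBP and 17.1 and 18.5 CPM in dnFOS, so dnCEBP and dnFOS lay on opposite sides of EV, and neither difference from EV passed the test (adjusted p = 0.458 and 0.159).

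The family's promoters held the letters read by AP-1 about as often as all promoters, and those read by C/EBP less often. Of 217 members in the promoter table, 13 (5.99%) held an AP-1 pattern on either strand in the 250 bases before the start and 7 (3.23%) a C/EBP pattern, against 6.6% and 9.13% of all promoters. Other protein-coding promoters of chromosome 19 gave 3.8% and 5.86%. By cluster the AP-1 share ran from 0.0% in clusters 1, 4, 5 and 9 to 15.8% in cluster 7 and 18.2% in cluster 8. Neither pattern contains the other or CCAAT. Among the 25 of the 26 genes called in dnFOS that the table holds, 1 promoter carried an AP-1 pattern, that of ZNF260, a gene called higher (0.463, adjusted p = 0.009, and 0.20 with the trend removed, adjusted p = 0.207), whose call was lost without dnFOS replicate 2 (adjusted p = 0.175) or EV replicate 1 (0.126), and 1 a C/EBP pattern, that of ZNF581. They are shown for that reason, with matches to these patterns and CCAAT in capitals:
ZNF260, chr19:36528272-36528521, minus strand: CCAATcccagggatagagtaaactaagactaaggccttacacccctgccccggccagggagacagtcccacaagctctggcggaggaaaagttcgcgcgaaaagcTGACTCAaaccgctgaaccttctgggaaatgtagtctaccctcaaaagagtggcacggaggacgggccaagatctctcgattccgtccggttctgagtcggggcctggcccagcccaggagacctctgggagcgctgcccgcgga
ZNF581, chr19:55643399-55643648, plus strand: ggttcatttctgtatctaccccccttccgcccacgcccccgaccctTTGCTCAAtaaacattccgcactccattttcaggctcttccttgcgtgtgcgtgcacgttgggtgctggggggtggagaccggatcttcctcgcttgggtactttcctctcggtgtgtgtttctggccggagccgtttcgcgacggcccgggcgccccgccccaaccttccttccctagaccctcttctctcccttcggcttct

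ZNF274 and ZNF331 were examined because of what they are known for. ZNF274 (cluster 10), which recruits SETDB1 to the 3′ ends of zinc finger genes themselves, had 39.8 and 35.7 CPM in EV, 39.1 and 40.8 CPM in dnCEBP and 38.5 and 32.3 CPM in dnFOS. All 3 groups overlapped but for dnFOS and dnCEBP, and no comparison passed the test (-0.0869 ± 0.12 in dnFOS against EV, adjusted p = 0.681). ZNF331 (cluster 8), an imprinted gene, had 9.69 and 12.3 CPM in EV, 10.8 and 10.4 CPM in dnCEBP and 13.4 and 12.4 CPM in dnFOS (0.235 ± 0.17 in dnFOS, adjusted p = 0.402).

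The co-repressor machinery on which KRAB proteins depend was taken as a list of 36 genes, all of which were tested. In dnFOS against EV 10 were higher and 2 lower, with a median log2 fold change of 0.0903. That is 33.3% called, against 15.0% of all genes and 17.7% of protein-coding genes. The list was not matched to these by level, which affects how readily a gene is called, so the difference in share was not tested. TRIM28 averaged 167 ± 11.1 CPM (SD, n = 2) in EV, 149 ± 16.7 CPM in dnCEBP and 152 ± 19.8 CPM in dnFOS, SETDB1 averaged 70.5, 67.6 and 65.7 CPM in the same groups, and neither passed the test in any comparison (in dnFOS against EV -0.134, adjusted p = 0.394, and -0.0982, adjusted p = 0.535). The heterochromatin proteins CBX3 (0.281, adjusted p = 0.0241) and CBX5 (0.382, adjusted p = 0.00341), the HUSH complex subunit TASOR (0.321, adjusted p = 0.00988) and the DNA methyltransferase DNMT3B (0.318, adjusted p = 0.0182) were among those higher. The 2 lower were the NuRD subunits CHD3 (-0.344, adjusted p = 0.00996) and MTA2 (-0.281, adjusted p = 0.0353). NuRD did not move as 1, since its subunit RBBP4 was called higher (0.357, adjusted p = 0.00362). Its other members in the list, CHD4, RBBP7, MTA1, HDAC1 and HDAC2, did not pass the test. With the trend removed 4 were higher (CBX5, RBBP4, CHD4 and DNMT3B) and 1 lower (CHD3) of the 36, where 4.75% of all genes were higher and 8.59% lower. In dnCEBP against EV none of the 36 was called by edgeR, DESeq2 or limma-voom. At an unadjusted p under 0.05, 2 of the 36 were higher and 5 lower, where 894 and 941 of all 15395 genes were. With the trend removed 2 were higher and 0 lower, where 0.955% of all genes were higher and 0.773% lower. In dnFOS against dnCEBP 7 were higher and 3 lower (27.8% of the list, against 14.7% of all genes and 17.1% of protein-coding genes). With the trend removed 5 were higher and 4 lower, where 7.25% and 10.4% of all genes were called.

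Zinc finger genes of chromosome 19 with other names (ZFP, ZSCAN, ZBTB, ZIM, ZIK1 and PEG3) numbered 19, of which 12 were tested. None was called in dnFOS or dnCEBP against EV by edgeR, DESeq2 or limma-voom. At an unadjusted p under 0.05, 2 were higher in dnFOS and 0 in dnCEBP, where 2108 and 894 of all 15395 genes were. The median log2 fold change of the 12 genes was 0.197 in dnFOS and 0.0861 in dnCEBP. PEG3, an imprinted gene, was higher in dnFOS than in dnCEBP (1.71, adjusted p = 0.0166) at a mean of 1.01 CPM in EV.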

How the data were processed

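RNA from KO52 cells was sequenced as paired reads of 75 bases. The authors deposited a table of unnormalized whole-number counts for each library. Per the labels, the submitters' processing notes name Trimmomatic, HISAT2, featureCounts of Subread, and the build hg38. The annotation, strand setting and treatment of reads matching several genes are not given in the sources used here.

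Groups came from sample titles. Genes passing filterByExpr (minimum count 10) were scaled by TMM and fitted in edgeR 4.0.16 (R 4.3.3) with a robust quasi-likelihood model over all 6 libraries. Contrasts were two-sided, with Benjamini-Hochberg adjustment over 15395 genes. SE were derived from the F statistic. IDs were matched to GENCODE release 29 (58394 matched), which gave coordinates, exon length and GC content. Alternatives were median-of-ratios factors, no filter, a 1 CPM mean filter, library totals, 4 libraries, DESeq2 1.42.0, limma-voom (limma 3.58.1), a replicate block, removal of a GC and length trend, and leaving out each library. Scripts were tested on simulated data.

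Members, lists and tests were chosen with earlier results of these data known. Named genes were 5 fixed members (ZNF91, ZNF93, ZNF274, ZNF331 and ZNF224) with TRIM28 and SETDB1, the largest called changes with a mean of at least 1 CPM and groups that did not overlap (up to 12 each way in dnFOS, 10 in dnCEBP and 5 between the peptides), and the highest member per kb of each cluster. Genes outside the rule are named as such or belong to a list.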

Additional observations from a re-analysis of the deposited data

How the results depend on the processing

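In dnFOS against EV the count of genes called higher (21) and lower (5) was 39 and 3 with library totals alone, 5 and 8 with the trend on GC content and length taken out, and 33 and 9 with the replicate block, and leaving out 1 library gave between 6 and 25 higher and between 2 and 7 lower. The median of 0.15 became 0.128 with no low-count filter, 0.25 with library totals alone and 0.0306 with the trend removed. In dnCEBP the 1 gene called higher became 2 with the replicate block and between 0 and 1 when 1 library was left out, and the median of 0.0669 became 0.0115 with the trend removed and between 0.00915 and 0.113 when 1 library was left out. In dnFOS against dnCEBP the 12 higher and 8 lower became 27 and 4 with library totals alone and 5 lower with limma-voom, and leaving out 1 library gave between 3 and 18 higher and between 4 and 7 lower. Its median of 0.0806 became 0.202 with library totals alone, 0.00922 with the trend removed and between 0.0471 and 0.127 when 1 library was left out. The cause of these shifts was not tested, other than that fits with fewer libraries hold fewer replicates. None of the named genes' calls reversed under any of these alternatives. Replicate numbers are shared by the groups, but the labels do not say that they mark a batch, and the correlation of same-numbered libraries' deviations was 0.0174 to 0.0879, so the block results stand here only. With 2 libraries a group and a median SE of 0.162 for the family in dnFOS, small changes could not be resolved, and the shallower dnFOS libraries carried more counting error.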
